A study of Homo sapiens with 2 samples.

Results

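The ZNF zinc finger genes of human chromosome 19 were described by the peaks of HNRNPC-bound RNA in their spans. Members were the RefSeq protein-coding genes of chromosome 19 (GRCh38) whose symbol is ZNF followed by digits alone. There were 240 of them among 20037 protein-coding genes, and they made up 16.5% of the 1451 protein-coding genes of that chromosome. A gene had a peak when the summit of a deposited peak lay within its span, the stretch from its first to its last annotated base.

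RNA was immunoprecipitated with 5 µg of an antibody to HNRNPC from cells of A549, a long-established human line of non-small cell lung cancer, and sequenced (RIP-seq). The series has 2 samples, 1 HNRNPC immunoprecipitate and 1 input of the same line, for which the labels name no treatment. The values here are the peaks of the immunoprecipitate. The fold enrichment and the q of a peak come from the authors' peak caller and serve only to describe and order peaks. No library was replicated, so samples were not tested against each other. The list held 23148 peaks with a highest q of 0.00998, of which 358 lay on chromosome 19. Read totals are not part of the list, so depth is unknown. RNA level was not measured in this list either, so the lack of a peak cannot be read as a lack of binding. Of the 5 epithelial markers 1, the cadherin gene CDH1, had a peak (20%, 95% exact binomial interval 0.505 to 71.6%). None of the 7 blood, endothelium and liver markers did (0 to 41.0%). Both intervals hold the 18.4% of all protein-coding genes with a peak, so these counts do not tell cell types apart.

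Most of the genes described here belong to a family of C2H2 zinc finger genes that arose by tandem duplication and lie in clusters along chromosome 19. Their proteins read DNA through arrays of zinc fingers, which are typically encoded in a single long last exon. Many also carry a KRAB domain, which recruits the corepressor TRIM28 and silences transposable elements and other targets. HNRNPC is a nuclear protein that binds runs of U in pre-mRNA and is known for keeping Alu-derived sequence in introns from being used as exons.

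HNRNPC peaks were carried by 34 of the 240 ZNF genes of chromosome 19 (14.2%, 95% exact binomial interval 10.01 to 19.2%), while 206 had none. Over all protein-coding genes 18.4% had a peak, so the ZNF share lay below but near this background. The remaining 1211 protein-coding genes of chromosome 19 had a peak in 4.62% of cases (3.51 to 5.96%), and the 237 ZNF genes of other chromosomes in 24.1% (18.8 to 30.01%). The interval of the chromosome 19 ZNF genes did not overlap that of the other genes of their chromosome. It overlapped that of the ZNF genes elsewhere only narrowly, from 18.8 to 19.2%, and each share lay outside the interval of the other. Such an overlap does not show that the shares are alike. These intervals, all Clopper-Pearson, cover counting error only, and expression was matched in none of these comparisons.

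In number of peaks, the 34 genes held 120 peaks, which is 33.5% of the peaks of chromosome 19 (28.6 to 38.7%). Per Mb of summed span the ZNF genes had 17.1 peaks, all protein-coding genes 17.2, the other genes of chromosome 19 8.19 and the ZNF genes of other chromosomes 24.5. The peaks were unevenly spread over the 34 genes. Of these, 8 had a single peak and 8 had 2, while the 10 members with 5 or more held 69 of the 120 peaks (57.5%). Among all protein-coding genes with a peak, 887 of 3685 had a single one. Their median number of peaks was 4, against 3 for the ZNF genes.

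Gene span was taken into account because longer genes more often have a peak. The median span was 23.1 kb for the ZNF genes, 24.1 kb for all protein-coding genes and 12.8 kb for the other genes of chromosome 19. Among genes of 10.8 to 16.3 kb, 6 of 34 ZNF genes had a peak (17.6%, 6.76 to 34.5%), against 1.30% of 230 other genes of chromosome 19 and 8.43% of the protein-coding genes outside the group. At 16.3 to 24.1 kb the ZNF share was 20.3% (10.98 to 32.8%) against 5.52% and 13.2%. At 24.1 to 35.3 kb it was 13.6% (6.04 to 24.98%) against 8.955% and 19.96%. At 35.3 to 52.3 kb it was 13.8% (3.89 to 31.7%) against 11% and 28.1%. In each of these classes the share of the protein-coding genes outside the group lies within the ZNF interval. At 52.3 to 83.5 kb the ZNF share was 1 of 17 (5.88%, 0.149 to 28.7%) against 13.2% and 32.7%, and the last of these lies above the ZNF interval. From the first to the last of these classes, the ZNF genes of other chromosomes had a peak in 12.8, 15.6, 28.1, 31.03 and 47.8%. With at most 59 members in a class, these intervals are wide. Members with and without a peak had nearly the same median span, 23.2 and 23.1 kb.

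**Figure D1:**
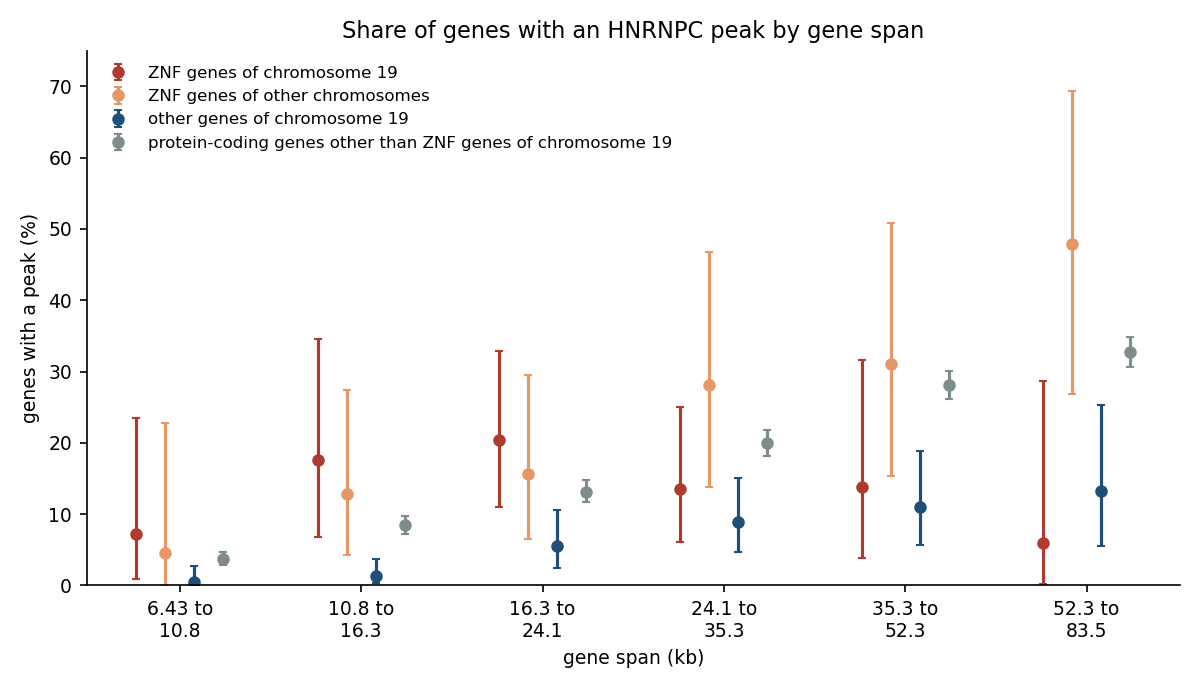
Percentage of genes with at least 1 HNRNPC peak (vertical axis) by gene span in kb (horizontal axis, 6 of 10 classes of equal gene number), for 4 sets of genes; bars are 95% exact binomial intervals. The share of the chromosome 19 ZNF genes is 17.6% at 10.8 to 16.3 kb, 13.6% at 24.1 to 35.3 kb and 5.88% at 52.3 to 83.5 kb, with wide intervals. Over other protein-coding genes the share climbs from 8.43% to 32.7% between the first and the last of these classes.

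The genes fell into 10 clusters of 3 or more, taken as runs with no gap above 500 kb between neighbouring members, which held 228 members; 12 were scattered. On 19p 10 of 83 members had a peak (12.05%, 5.93 to 21.04%) and on 19q 24 of 157 (15.3%, 10.05 to 21.9%), with overlapping intervals. On 19q lay 94 of the 120 peaks. Among the clusters, 7 had a member with a peak and 3 had none. The 18.4% of all protein-coding genes lies within the interval of the share of each cluster except cluster 8, whose interval ends at 17.3%. The differences between clusters are therefore given as description only.

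The last cluster of 19q, cluster 10, held the most peaks and was also the largest cluster by members. It runs from ZNF264 to ZNF446 over chr19:57191500-58489533, and 11 of its 41 members (26.8%, 14.2 to 42.9%) carried 48 peaks, 40.0% of all peaks in the group. The first 4 genes of the cluster, ZNF264, ZNF805, ZNF460 and ZNF543, formed an unbroken run of neighbours with peaks, 22 in all over 139.3 kb. ZNF548, ZNF749, ZNF550, ZNF776, ZNF587, ZNF417 and ZNF8 followed with 2 to 5 peaks each and best folds from 5.27 to 7.63. Without cluster 10, 23 of 199 members had a peak, 13 of 116 on 19q, and 72 peaks remained. ZNF544, ZNF814 and ZNF274 are the longest of the 24 genes without a peak that lie between these members.

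Cluster 6 on 19q (ZNF565 to ZNF573, chr19:36182060-37779586) came next by number of peaks, with 27 in 6 of 24 members (25%, 9.77 to 46.7%). They were ZNF565, ZNF146, ZNF260, ZNF875, ZNF527 and ZNF607. Between them lay 17 genes without a peak, of which ZNF420 with 122.5 kb, ZNF568 and ZNF540 are the longest. On 19p, cluster 2 (ZNF414 to ZNF846, chr19:8509678-9786160) had 16 peaks in 4 of 13 members (30.8%, 9.09 to 61.4%). ZNF121, ZNF561 and ZNF562 are direct neighbours on the same strand and held 15 of these, and ZNF317 held 1. ZNF560, ZNF266 and ZNF559 had none.

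The larger clusters between these held fewer peaks. In cluster 4, near the centromere on 19p (ZNF101 to ZNF254, chr19:19668153-24129968), 4 of 37 members (10.8%, 3.025 to 25.4%) had 2 peaks each: ZNF714, ZNF43, ZNF724 and ZNF254. ZNF91, a primate gene that represses SVA elements, had none in its 90.5 kb, nor had ZNF676 and ZNF730. In cluster 8 (ZNF175 to ZNF331, chr19:51571283-53580269) 2 of 39 members (5.13%, 0.627 to 17.3%) had a peak. These were ZNF611 with 3 and ZNF766 with 1, and the longest genes between them without one were ZNF83, ZNF578 and ZNF808. In cluster 3 (ZNF653 to ZNF791) 2 of 25 did, ZNF490 and ZNF791, and in cluster 7 (ZNF575 to ZNF180) 3 of 23, ZNF224, ZNF283 and ZNF234, while ZNF221, ZNF225 and ZNF45 had none. Cluster 9 (ZNF628 to ZNF835) had no peak in 16 members (exact interval 0 to 20.6%), and clusters 1 and 5 had none in 5 members each (0 to 52.2%). Of the scattered members ZNF507 had 8 peaks and ZNF473 had 3. Closely similar genes share sequence, and how reads that match several of them were counted is not given in the sources used here. Its part in the counts by cluster was not tested.

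**Figure D2:**
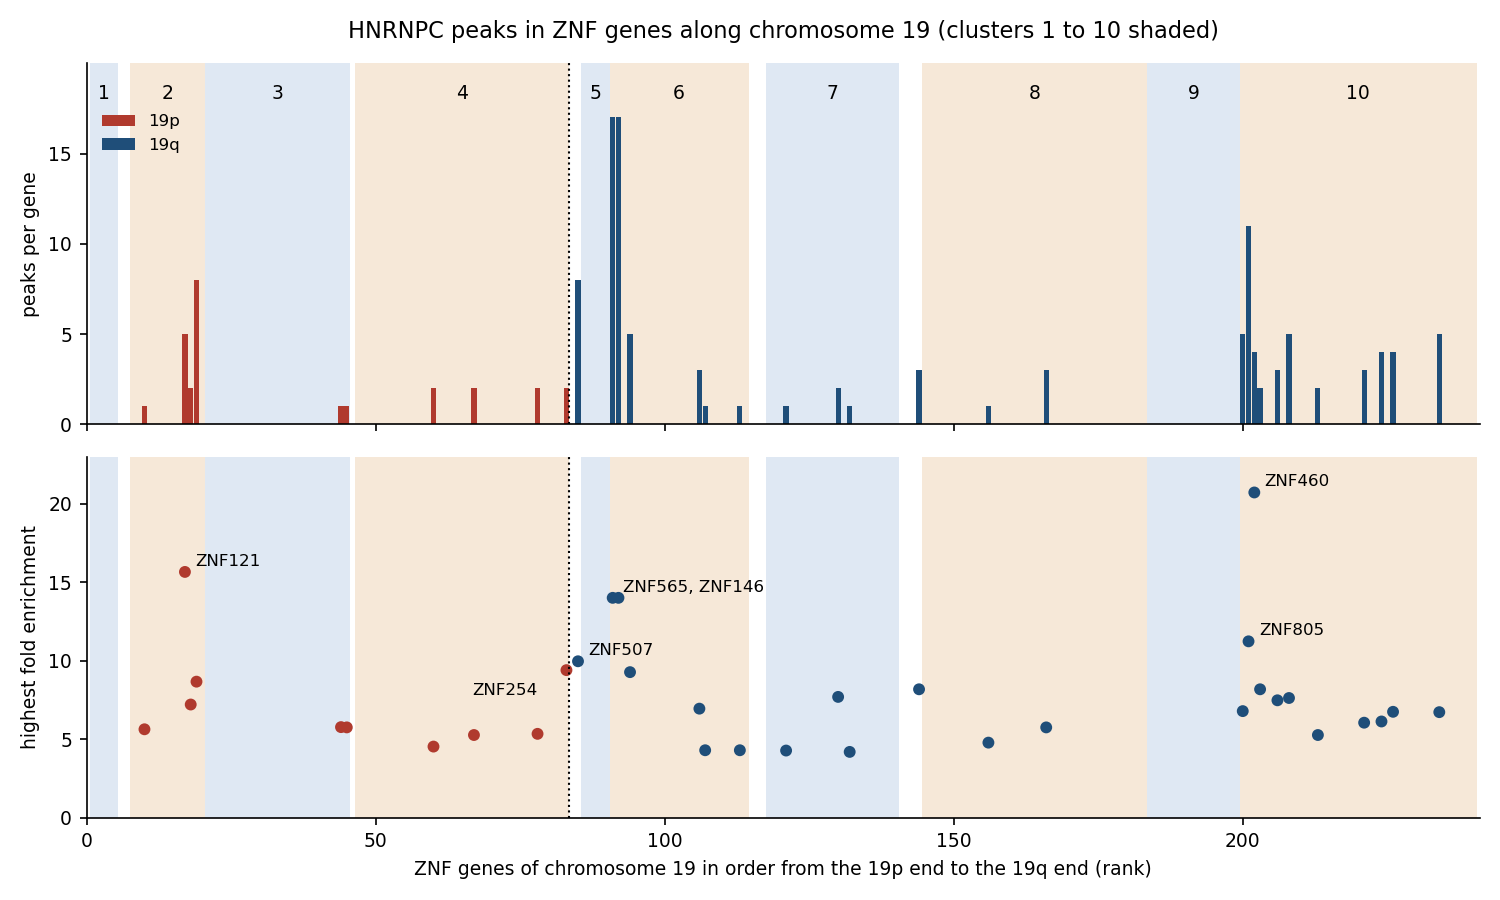
Number of HNRNPC peaks (top) and highest fold enrichment (bottom) of each of the 240 ZNF genes of chromosome 19, ordered by rank from the 19p end to the 19q end; shading marks clusters 1 to 10 and the dotted line parts 19p from 19q. Peaks gather at the right end of cluster 2, the left end of cluster 6 and in cluster 10, and the highest fold is that of ZNF460, 20.7.

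The highest folds belonged to few members. The median of the best folds of the 34 genes was 6.77 (quartiles 5.42 and 8.55, range 4.20 to 20.7), against 7.04 for all protein-coding genes with a peak, and the 95% interval of the ZNF median, 5.76 to 8.19, holds that value. A best fold of 10 or more was reached by 5 members, of which ZNF565 and ZNF146 shared their peaks, and 6 members stayed below 5. Folds recurred at fixed values: 35 of the 120 peaks had a fold of 4.30, 4.79, 5.27, 5.76 or 8.19. Members whose best folds differ by 1 such step, about 0.49, are not ordered by these data.

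ZNF460 (NCBI gene 10794, chr19:57279982-57294069, plus strand) led the group with 4 peaks of folds 8.19, 14.01, 19.4 and 20.7 from its 5′ to its 3′ end. The peak of fold 20.7, at chr19:57290672-57296923, was 6252 bp wide, ranked 20 of all 23111 peaks on chromosomes 1 to 22, X and Y by fold, and ran 2854 bp past the annotated end of the gene. Its summit lay 286 bp before that end. The peak of fold 19.4 was by contrast 168 bp wide and lay 4.63 kb from the 5′ end. Together the peaks of ZNF460 covered 4273 bp of a span of 14.1 kb.

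ZNF121 (NCBI gene 7675, chr19:9560329-9584504, minus strand) followed with 5 peaks and a best fold of 15.7. That peak was 1820 bp wide, at chr19:9565292-9567111, and its widest one, of 3669 bp and fold 9.07, lay between it and the 3′ end. A peak of 80 bp and fold 11.1 had its summit 37 bp from the 5′ end. The other peaks had folds of 5.05 and 6.70. Its neighbours were lower: ZNF562 reached 8.67 over 8 peaks and ZNF561 7.22 over 2.

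ZNF565 and ZNF146 had the most peaks, 17 each, but these were the same peaks. The span of ZNF146 (NCBI gene 7705, chr19:36214723-36238768, plus strand), whose protein consists almost wholly of zinc fingers, lies within that of ZNF565 (NCBI gene 147929, chr19:36182060-36245928, minus strand). All 17 summits fell in the stretch common to both, and the 39.8 kb of ZNF565 outside ZNF146 held none. The peak list has no strand, so which gene the RNA came from cannot be told apart. The strongest of these peaks had a fold of 14.01 in a width of 198 bp at chr19:36228665-36228862, the next had 10.1, and the other 15 lay between 4.30 and 5.76.

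ZNF805 (NCBI gene 390980, chr19:57240632-57262728) had 11 peaks, the most for a gene that shared none, with folds from 3.82 to 11.2. The peaks of highest fold, 11.2, 9.71 and 9.48, lay in neighbouring stretches from 4.64 to 8.51 kb before its 3′ end. ZNF507 (NCBI gene 22847, chr19:32345610-32387667), a scattered member, had 8 peaks with a best fold of 9.97 in a peak of 1455 bp. Its peaks fell in separate groups, 6 with summits up to 13.1 kb from the 5′ end and 2 at 37.9 and 38.3 kb, with none between.

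The other members among the 10 of highest fold, ties included, were ZNF254, ZNF260, ZNF562, ZNF473 and ZNF543. ZNF254 (chr19:24033449-24129968) had a peak of 47 bp with a fold of 9.41, and its other peak had 4.90. ZNF260 (chr19:36510687-36528271), a zinc finger gene known from the heart, had 5 peaks up to 9.28 and 1 of 1929 bp. ZNF473, whose protein acts in the processing of histone pre-mRNA, and ZNF543 had best folds of 8.19. Of the other genes with 5 peaks, ZNF264, ZNF749 and ZNF8 reached 6.80, 7.63 and 6.73. At the lower end, ZNF527, ZNF607, ZNF283 and ZNF234 had 1 peak each with folds from 4.20 to 4.30.

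Pairs of similar genes can be set side by side, with the limit on shared reads given above. ZNF587 and ZNF417, close copies known to repress endogenous retroviruses, had 4 peaks each with folds of 3.90 to 6.14 and 5.76 to 6.75. ZNF490 and ZNF791 are neighbours in divergent orientation, 106 bp apart, and had 1 peak each with folds of 5.78 and 5.76. That of ZNF791 lay 68 bp from its 5′ end and that of ZNF490 31.3 kb from its own.

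Wide peaks made up a larger share than over all protein-coding genes. Of the 120 peaks, 11 (9.17%, 4.67 to 15.8%) were 1000 bp or wider, against 2.44% of the peaks in all protein-coding genes (2.24 to 2.65%) and 1.90% in the other genes of chromosome 19 (0.519 to 4.78%). In the ZNF genes of other chromosomes the share was 6.64% (3.92 to 10.4%), with an interval that overlaps that of chromosome 19. These intervals treat peaks as independent, although many lie in the same gene. Among genes of known strand, the share in the last 5 kb of the span was 10% (2.11 to 26.5%), against 8.87% over all protein-coding genes. Between that stretch and the first 300 bp it was 9.59% (3.94 to 18.8%) against 1.825%. The wide peaks lay in 9 members: ZNF121, ZNF565 with ZNF146 and ZNF805 had 2 each, and ZNF562, ZNF507, ZNF260, ZNF473 and ZNF460 had 1. The median width differed little, at 137 bp (quartiles 80 and 285 bp) against 124 bp over all protein-coding genes. The median fold of the peaks was 5.76 in both sets.

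**Figure D3:**
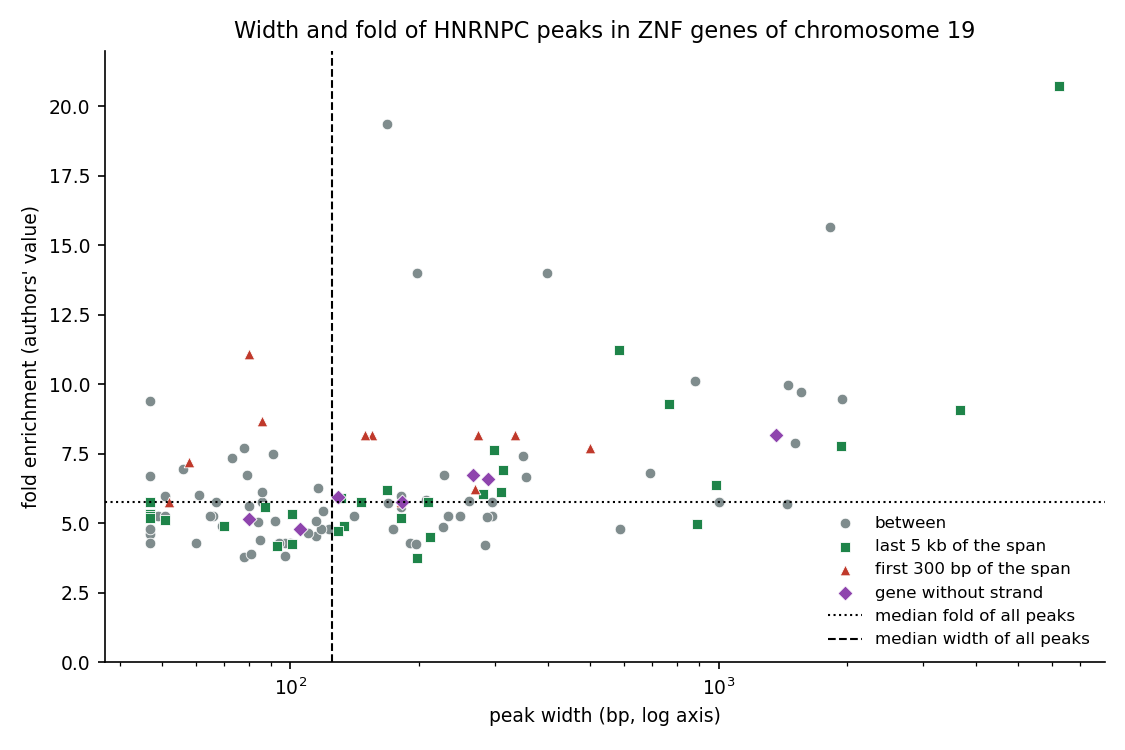
Width in bp (horizontal, log axis) and fold enrichment (vertical axis) of the HNRNPC peaks in ZNF genes of chromosome 19, marked by place in the gene; the peaks shared by ZNF565 and ZNF146 are drawn for each of them. Most points lie near the median fold of 5.76 and the median width of 125 bp of all peaks, and a peak of 6252 bp and fold 20.7 in ZNF460 stands at the upper right.

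Peaks were placed along the gene by strand, which the RefSeq promoter table gave for 210 members, 32 of them with a peak. ZNF473 and ZNF417 were not oriented. Each of the 17 shared peaks counted once for ZNF565 and once for ZNF146, which gave 130 pairs of gene and peak. Exon positions were not used here, so last exons and introns were not told apart and distance from the span ends took their place.

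At the 5′ end, summits were denser than an even spread over the spans in the first 300 bp, but not over 5 or 10 kb. At 2 kb the reading depended on the genes counted. Within 2 kb of that end lay 18 summits (13.8%, 8.42 to 21%), against 8.16% of the span. In members of 20 kb or more the share was 10.3% (5.06 to 18.1%) against 6.37%, and without ZNF565 and ZNF146 17.7% (10.7 to 26.8%) against 9.03%. The intervals treat the 130 pairs as independent, although 17 peaks enter for both of these genes and many lie in the same gene. Within 5 kb of that end lay 25 summits (19.2%, 12.9 to 27.1%), against 20.4% of the span, and within 10 kb 39.2% (30.8 to 48.2%) against 40.8%. Within 300 bp, a distance chosen after the data were seen, lay 11 summits, 8.46% of the 130 (4.30 to 14.6%), whereas such a stretch made up 1.23% of the span in the mean over these pairs. Over all protein-coding genes the share was 6.14% (5.80 to 6.49%) against 0.601%, which lies within the ZNF interval. They belonged to 11 of the 32 genes (34.4%, 18.6 to 53.2%), against 37.9% of all oriented genes with a peak. The RefSeq promoter table also gives a transcription start, which is the end of the span in 168 of the 210 oriented members. Counted downstream from that start, 14 peaks in 14 members lay within 300 bp. In 20 of the 130 pairs the summit lay upstream of it. That start replaces the span end for ZNF254, ZNF146 and ZNF550, which joined the 11. The unoriented ZNF417 also had a summit 51 bp from one end of its span.

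The start-proximal peaks had the highest median fold of the 3 places. Their median fold was 8.19 (range 5.76 to 11.1), against 5.27 for the peaks between (3.80 to 19.4) and 5.67 for those in the last 5 kb (3.75 to 20.7). The highest single folds thus lay in the other places. The first median rests on 11 peaks in a window chosen after the data were seen. Over all protein-coding genes the medians were 6.51, 5.76 and 5.22. The peaks near the start were 52 to 500 bp wide, and none reached 1000 bp. Listed with their folds, they were those of ZNF121 (11.1), ZNF562 (8.67), ZNF507, ZNF260, ZNF460 and ZNF543 (8.19 each), ZNF224 (7.70), ZNF561 (7.22), ZNF805 (6.24), ZNF791 and ZNF548 (5.76 each). ZNF224 encodes a KRAB repressor, and its summit, at 216 bp, lay farther in than most.

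In 9 of these genes the summit was 37 to 77 bp from the 5′ end. Bases 21 to 50 of their transcribed strand, the annotated stretch nearest to these summits in the RefSeq promoter table (GRCh38.p14), are shown 5′ to 3′ because HNRNPC is known to bind runs of U; capitals mark runs of 3 or more T.
ZNF121 (chr19:9584455-9584484, minus strand): gtggtggagtccaccctggctgtggtgagt
ZNF562 (chr19:9675051-9675080, minus strand): accggctgtggctcagcatggtcagtgccg
ZNF561 (chr19:9621183-9621212, minus strand): ctccgtcagtgcggTTTcgccTTTatggtg
ZNF507 (chr19:32345630-32345659, plus strand): cgccaTTTTggagctccggatgaggagggg
ZNF260 (chr19:36528222-36528251, minus strand): tctccgacttgccatggtcgtcTTTgtctg
ZNF460 (chr19:57280002-57280031, plus strand): gcacactgtcaggcgtcctccTTTgggtgg
ZNF543 (chr19:57320492-57320521, plus strand): tgagcaggattggccctggaacagtgtggg
ZNF548 (chr19:57389874-57389903, plus strand): ggtggtggtcgTTTTggttctgtgtggtgt
ZNF791 (chr19:12610940-12610969, plus strand): tgcgatcgggttgtgcttagcttggggtct

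The stretches of ZNF121, ZNF561, ZNF260 and ZNF460 lie wholly within the peak, and at least 14 of the 30 bases do in the others. A run of 3 or more T lies in 5 of the 9, none of them longer than 4. In the first 50 bases of the 11 genes, TTTTT occurred in 1, ZNF224, on the transcribed strand and in no further one when the other strand was added. It occurred in 2.36% of the 13282 protein-coding genes with such a window, and in 3.71% with both strands. TTT, which every TTTTT also holds, occurred on the transcribed strand in 8 of the 11 (72.7%), in 5 of 14 other members with a peak, in 72 of 143 members without one (50.3%), in 28.2% of all genes with a start-proximal peak and in 29.3% of all these genes. The whole promoter window has 300 bases, of which 250 lie before the start, outside the annotated transcript. In it TTTTT on the transcribed strand occurred in 3 of the 11 (27.3%) and in 19.1% of all these genes. On either strand it occurred in 6 of the 11 (54.5%), in 3 of 14 other members with a peak and in 38 of 143 members without one (26.6%). The share on either strand was 26.6% of all genes with a start-proximal peak and 32.4% of all these genes. With 11 genes, such shares are imprecise. The median GC content of the first 50 bases was 62% in each of these groups of members and 64% over all genes. A match describes the letters in this window only.

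At the 3′ end, the values shifted with the overlapping pair ZNF565 and ZNF146. With or without it, the intervals at 2 and 5 kb hold the share of the span. Within 5 kb of the end lay 30 summits (23.1%, 16.1 to 31.3%), while such a stretch made up 20.4% of the span. Over all protein-coding genes the values were 9.25% and 8.51%. Within 2 kb the ZNF share was 4.62% (1.71 to 9.78%) against 8.16% of the span, and within 10 kb 44.6% (35.9 to 53.6%) against 40.8%. Without ZNF565 and ZNF146, a choice made after the data were seen, the share within 5 kb was 30.2% (21.3 to 40.4%) against 22.6%. Within 10 kb it was 56.3% (45.8 to 66.4%) against 45.1%, and within 2 kb 6.25% (2.33 to 13.1%) against 9.03%. Only the interval at 10 kb lies above the share of the span, and narrowly. It treats 96 peaks in 30 genes as independent, so an excess near the 3′ end cannot be read from it. The median relative position, counted from 0 at the 5′ end to 1 at the 3′ end, was 0.467, and 0.645 without that pair.

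In some single genes the peaks lay together in 1 part of the span. In ZNF749 all 5 summits lay between 168 bp and 3.47 kb from the 3′ end, and ZNF460 had 1 at 286 bp. In ZNF724 they lay 0.896 and 1.18 kb from it, in ZNF611 all 3 from 2.40 to 4.02 kb and in ZNF776 all 3 from 2.51 to 4.62 kb before it. ZNF264 had its 5 peaks from 9.39 to 11.3 kb before the end, in ZNF8 4 of 5 lay from 2.31 to 6.08 kb before it, and ZNF714 had its 2 at 7.55 and 8.21 kb. ZNF587 had 3 peaks from 5.34 to 6.06 kb before the end and 1 at 8.99 kb, which is in the first part of its span at a relative position of 0.411. Near the 5′ end lay the peaks of ZNF43, with summits 0.804 and 1.08 kb from the 5′ end, and of ZNF766, with 1 at 315 bp from it. ZNF875 had its 3 peaks from 5.10 to 13.4 kb into a span of 51.6 kb, and ZNF550 its 2 from 1.59 to 5.13 kb. ZNF317, ZNF234, ZNF283, ZNF527 and ZNF607 had a single summit inside the span.

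**Figure D4:**
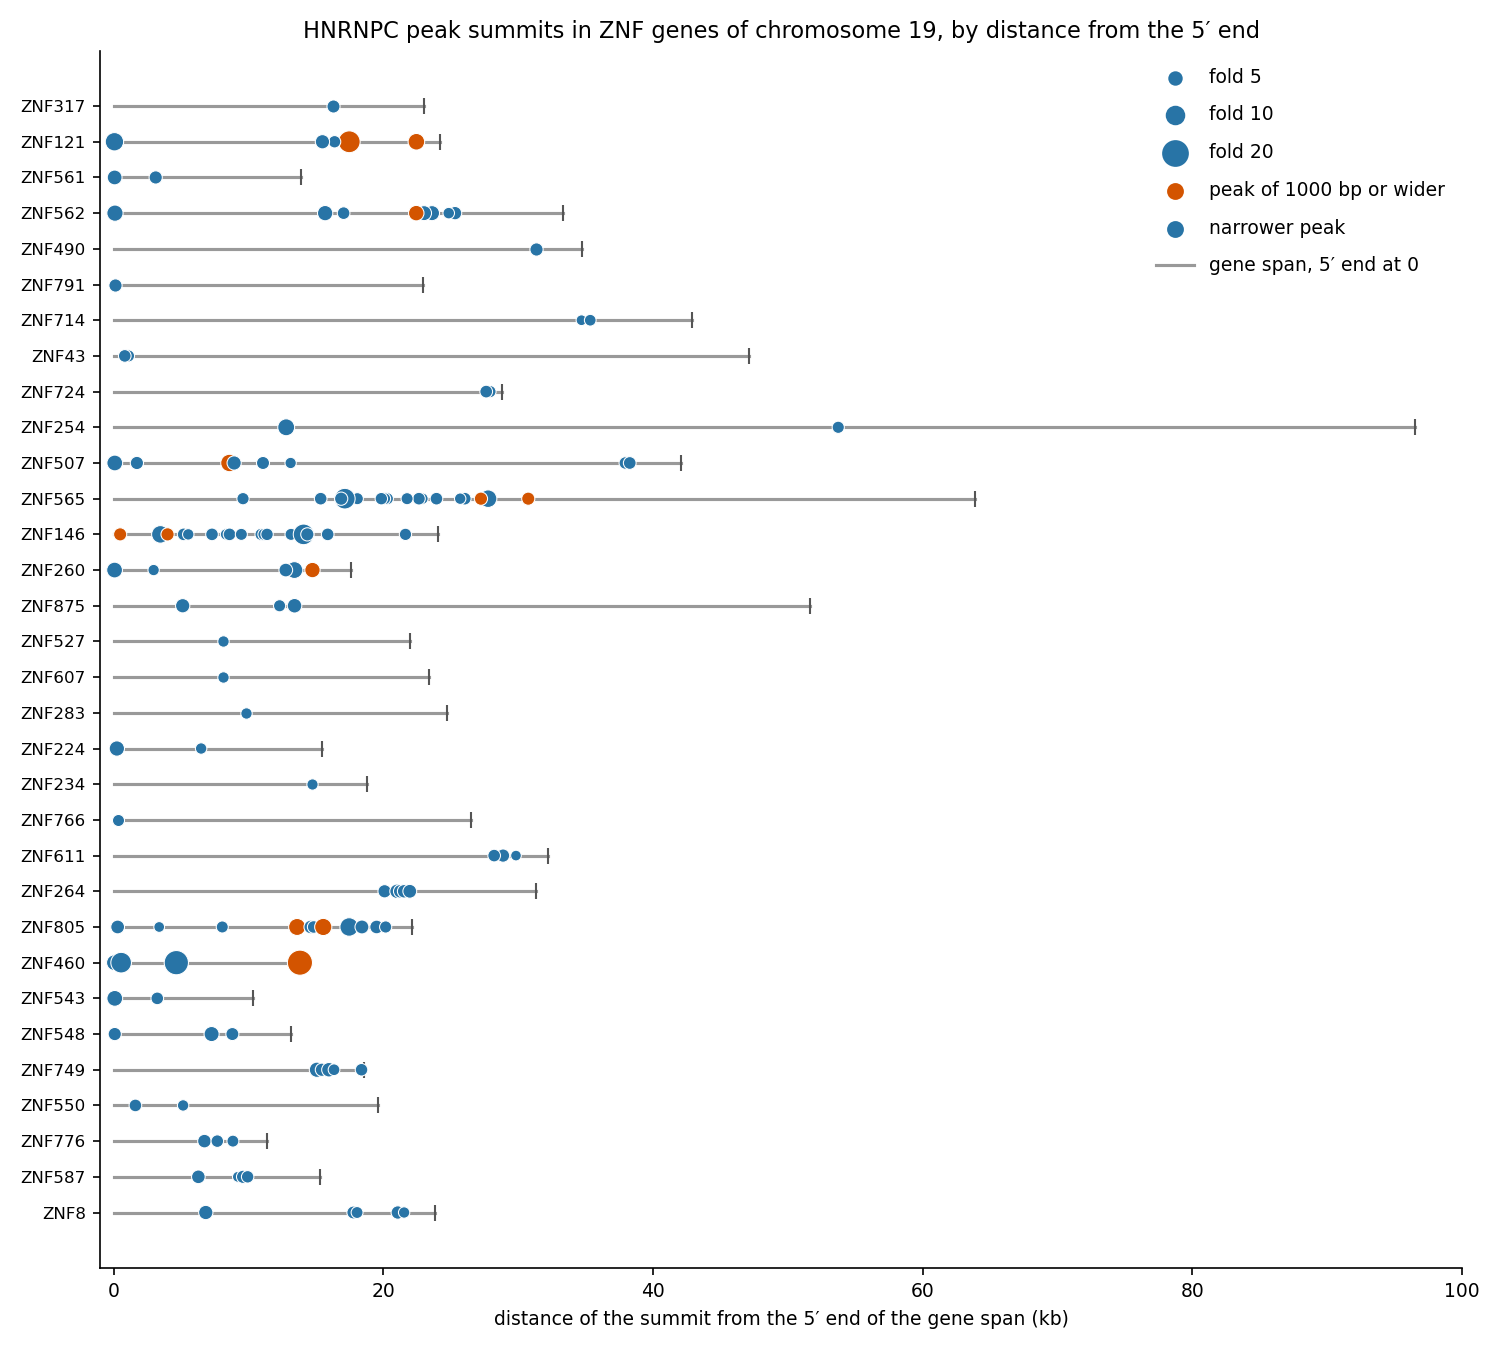
Summits of HNRNPC peaks by distance in kb from the 5′ end of the span (horizontal axis) in the 32 oriented ZNF genes of chromosome 19 with a peak, 1 line per gene in chromosome order; dot area follows the fold and orange dots are peaks of 1000 bp or wider. In 11 genes a dot lies within 300 bp of the 5′ end, and the dots of ZNF565 and ZNF146 are the same 17 peaks.

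Related genes outside the group were set beside it, and the background share of 18.4% over all protein-coding genes lies within both intervals that follow. Of 24 other zinc finger genes of chromosome 19, named ZFP, ZSCAN and the like or ZNF with a letter, 7 had a peak (29.2%, 12.6 to 51.1%) with a median best fold of 4.89. ZNF587B led these with 10.4 over 5 peaks, followed by ZSCAN22 (6.24), ZFP14 (5.07) and ZNF780A (4.89). Of 17 genes of the TRIM28 corepressor pathway, 6 had a peak (35.3%, 14.2 to 61.7%), with a median best fold of 8.26. They were led by CBX5, a heterochromatin protein 1 gene, with 12.6, TASOR, a subunit of the HUSH silencing complex, with 12.1 over 16 peaks, ATF7IP, a partner of the methyltransferase SETDB1, with 8.81, and the remodeller CHD4 with 7.71. TRIM28 itself, with a span of 6.65 kb, had none. ZNF536, the longest gene of the group at 488.0 kb, and ZNF69 and ZNF577 likewise had none.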

How the data were processed

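The 1 file used is the authors' peak list of the immunoprecipitate; the input was not analysed separately. Per the submitters' processing notes, build hg38 and the tools HISAT2, MACS2 and bedtools were used; versions, settings, the control and the treatment of reads with several matches are not given in the sources used here. The deposited columns are a score, a fold enrichment (ratio), −log10 of p and of q, and a summit offset, all per the file's column order.

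Genes and spans came from a RefSeq table (GRCh38 patch 14), and strand and start sequences from a RefSeq promoter table that matched 210 of 240 members. A summit was counted for every protein-coding gene whose span held it. Clusters allowed gaps of up to 500 kb; 19p and 19q were split at 26 Mb. Members, lists and comparisons were chosen with earlier results of these data known. The naming rule took every member with a peak, full values for the 10 of highest fold, the 5 with most peaks and each cluster's leader, up to 3 members per cluster without a peak between those with one, the 5 longest without one, and up to 4 genes per other list. The start-proximal window was added later. Alternatives are given in the closing section. Planned protein features and peak sequences were not analysed here. Summit assignment was tested on simulated data: all 200 planted summits were found among 20037 genes. Intervals came from scipy 1.17.1 and tables from pandas 2.3.3, in Python 3.11.15.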

Additional observations from a re-analysis of the deposited data

How the results depend on the processing

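Of 76 values under alternatives, 69 stayed within 1.5 times the reported count or within the 95% interval of the reported share or median. The settings tried were a fold of at least 4, a q no higher than 0.001, any overlap with the span, summits in several protein-coding spans left out, peaks of 1000 bp or wider left out, other gaps between clusters, other distances from the ends and spans of 20 kb or more. At the stricter q, 29 members kept a peak. Some values could hardly move. No peak overlapped a member without a summit in one, so any overlap repeated every value, and a fold of at least 4 left 116 of 120 peaks. Leaving out shared summits or ZNF565 and ZNF146 gave the same 96 pairs of gene and peak. The tally is therefore no measure of how stable the results are. The other 7 values were these. Within 2 kb of the 3′ end lay 4.62% of summits and within 10 kb 44.6%, and within 10 kb of the 5′ end 39.2%, as shorter or longer stretches were counted. The median relative position was 0.645 with shared summits left out, and likewise without ZNF565 and ZNF146, which hold these summits. Without cluster 10, 13 members on 19q had a peak and 72 peaks remained, as fewer genes entered. The alternatives on ZNF565 and ZNF146, on cluster 10 and on the start-proximal window were chosen after seeing the data. No paired analysis was possible because each group has 1 sample and no test was made. The depth of the library is not known, which limits what the lack of a peak can show.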
